A study of Mus musculus with 33 samples.

Results

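The vessel cells of the mouse hippocampal neurogenic niche are described here: endothelial cells, which line blood vessels, and the mural and fibroblast cells that wrap them. A cell was counted as a vessel cell when 12 genes together reached 7 or more transcripts in a deposited table in which every cell had been cut to about the same depth. It was called endothelial when Cldn5, Ly6c1, Flt1, Itm2a, Ly6a and Slco1a4 summed to more, and mural or fibroblast when Rgs5, Vtn, Myl9, Acta2, Dcn and Igf2 summed to more. Of 1536 cells, 59 met the rule: 38 were endothelial, 21 were mural or fibroblast, no cell was tied, and 1477 other cells form the comparison. All measurements are single-cell RNA sequencing by SORT-seq, a plate-based method in which the 3′ end of each RNA molecule is read with a tag for its well and a random tag, the unique molecular identifier (UMI), so that copies are counted once. The cells came from the hippocampus of C57BL/6 mice, the genotype is given as wild-type for every library, and live cells that stained for neither GluR1 nor Cd24 were sorted after neurons had been depleted. 1 library came from mice older than 12 months (the old library), 1 held GFP-positive cells of Nestin-GFP mice, in which the reporter is driven by the Nes promoter, and 31 libraries came from 5 numbered experiments on the niche; the old library, the Nestin-GFP library and the experiments are the 7 sources below, and 32 of the 33 libraries hold cells described here. The sources used here do not state the ages of the other mice or how many mice an experiment used, so the spread between sources may be partly technical. The p-values cover no more than that spread and counting error. The spread is estimated partly over all genes together, so a small p-value does not show that a gene varied little between sources.

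Brain endothelial cells are joined by tight junctions and carry transporters for glucose, amino acids, iron and lipids, which together form the blood-brain barrier. Pericytes lie in the same basement membrane and signal through the receptor Pdgfrb, which binds the growth factor Pdgfb released by endothelium; smooth muscle cells surround arteries, and fibroblasts lie in the meninges and around larger vessels. Vessels in the neurogenic niche are known as neighbours of the neural stem cells and as a source of secreted signals.

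Many endothelial genes are switched on by ETS transcription factors, which bind DNA at a GGAA core. Promoter windows of 300 bases, from 250 bases before to 50 bases after the start of transcription, were available from RefSeq (GRCm38.p6) for 7 of 11 genes looked up: the 10 genes with the largest endothelial difference named below, and Cldn5. The windows of 3 genes are printed 5′ to 3′, because Robo4 was not found in any other cell of the sources compared, Egfl7 was abundant in all of them, and Cldn5, the tight-junction gene of the rule, shows a window without the motif; capitals mark CAGGAAG or its reverse complement CTTCCTG, an ETS-type motif searched on both strands.
Robo4, chr9:37401722-37402021, plus strand: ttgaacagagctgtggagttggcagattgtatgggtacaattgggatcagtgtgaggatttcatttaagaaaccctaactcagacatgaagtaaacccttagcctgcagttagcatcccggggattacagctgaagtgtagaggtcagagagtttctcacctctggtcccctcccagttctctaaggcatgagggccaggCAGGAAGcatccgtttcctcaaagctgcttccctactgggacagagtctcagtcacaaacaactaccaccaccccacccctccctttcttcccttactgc
Egfl7, first of 3 promoters, chr2:26580833-26581132, plus strand: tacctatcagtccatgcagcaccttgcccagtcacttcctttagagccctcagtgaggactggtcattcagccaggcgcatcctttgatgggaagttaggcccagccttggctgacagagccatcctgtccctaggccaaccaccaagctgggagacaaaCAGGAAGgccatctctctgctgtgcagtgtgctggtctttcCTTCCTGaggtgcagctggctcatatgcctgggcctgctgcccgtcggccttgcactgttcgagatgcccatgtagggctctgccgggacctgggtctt
Cldn5, chr16:18776597-18776896, plus strand: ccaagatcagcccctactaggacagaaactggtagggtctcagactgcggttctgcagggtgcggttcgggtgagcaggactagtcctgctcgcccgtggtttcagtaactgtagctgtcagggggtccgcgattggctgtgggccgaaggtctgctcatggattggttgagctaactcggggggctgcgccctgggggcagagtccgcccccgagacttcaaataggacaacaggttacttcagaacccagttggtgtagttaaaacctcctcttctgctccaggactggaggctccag
The Robo4 window held 1 match, which started at position -50 from the start site. The first Egfl7 window held 2 matches, the second 1 and the third 0, and the windows of Adcy4, Tek, Nostrin, Slc38a5 and Cldn5 held 0. Of all 32851 promoter windows of this length, 13.3% held the motif, so a match is a description of these letters and not a site, and its absence says only that these letters are not in the window.

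Depth differed between the classes. Endothelial cells held a median of 3104 transcripts and 1656.5 genes, mural and fibroblast cells 6611 transcripts and 2887 genes, and other cells 5197 transcripts and 2416 genes. Within every source compared endothelial cells were shallower: their median was 3567 against 4961 transcripts for other cells in the old library, 2258 against 6342 in the Nestin-GFP library, 3551 against 7166 in experiment 2 and 2459 against 2683 in experiment 5. Shares of cells with a transcript are therefore taken from the equal-depth table (1407 to 1498 transcripts per cell), and levels from all transcripts of the same wells, as counts per 1000000 (CPM) of the transcripts counted in a class of cells of a source. Barcodes are reused between plates: the 1536 cells carried 357 well numbers, 260 of which occurred in 2 or more libraries, and the 59 vessel cells carried 52. A cell is therefore identified by its library and well together.

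Vessel cells made up 3.84% of all cells (exact binomial 95% interval 2.94% to 4.93%). Their share was 3.91% in the old library (5 of 128 cells), 3.68% in the Nestin-GFP library (11 of 299) and between 0.265% (1 of 377, experiment 1) and 10.3% (14 of 136, experiment 4) in the niche experiments. Without wells that held 7 or more transcripts of another cell type's markers the Nestin-GFP share was 1.37% (4 of 292). Endothelial cells reached 4.76% in experiment 5 (1.77% to 10.1%) and 3.79% in experiment 2 (2.03% to 6.39%), and were 0.265% in experiment 1 (0.00672% to 1.47%). Mural and fibroblast cells made up 8.82% of experiment 4 (4.64% to 14.9%) and 1.75% or less of every other source. Without wells that held 7 or more transcripts of another cell type's markers the experiment 4 share was 6.06% (8 of 132). None was found among 299 Nestin-GFP cells (exact interval up to 1.23%) or among 377 cells of experiment 1 (up to 0.974%). Since the rule chose the cells from their transcripts and the sort removed other cells, these shares describe the sorted cells and were not tested between sources. Intervals and limits cover counting error only.

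**Figure D1:**
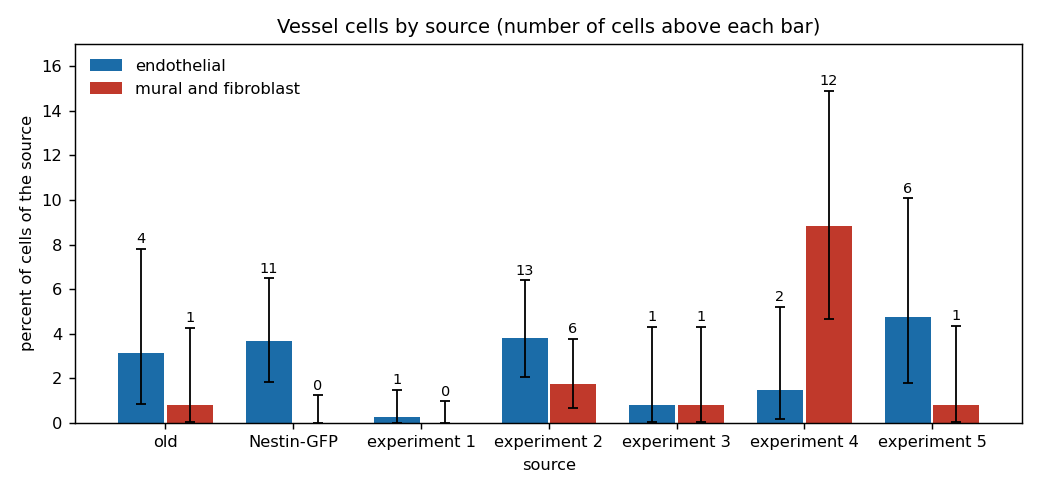
Share of endothelial (blue) and mural and fibroblast (red) cells among the cells of each source, in percent; bars are shares, error bars exact binomial 95% intervals, and numbers above the bars cells. Experiment 4 stands out with 12 mural and fibroblast cells of 136 (8.82%, or 6.06% without wells with other cell types' markers). The Nestin-GFP library holds 11 endothelial cells (3.68%, or 1.37% without such wells) and no mural or fibroblast cell.

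Sums of the 12 genes are given as a description, because the cut at 7 was made on them. In 1292 of the 1536 cells the 12 genes summed to 0, whereas endothelial cells had a median sum of 34.5 (7 to 65) and mural and fibroblast cells a median of 27 (7 to 70). Just outside the threshold lay 3 cells with a sum of 4, 2 with 5 and 3 with 6; just inside lay 2 cells with 7 and 1 with 9. Of the endothelial cells, 36 of 38 held no transcript of the 6 mural genes, and 15 of 21 mural and fibroblast cells held none of the 6 endothelial genes (at most 4).

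All 38 endothelial cells held Cldn5, the main tight-junction claudin of brain endothelium, with a median of 6.5 transcripts (at most 20). Slco1a4, an organic anion transporter, was found in 37, Ly6a in 36, Itm2a in 35, Ly6c1 in 33 and the Vegf receptor Flt1 in 32. Other cells held these genes far less often, from 0.474% with Cldn5 or Flt1 to 2.91% with Itm2a. Ly6c1 has a near-identical neighbour, Ly6c2, so its counts are uncertain. Among mural and fibroblast cells Vtn, encoding vitronectin, was found in 20 of 21 (median 13 transcripts, at most 53), the growth factor gene Igf2 in 18, the matrix proteoglycan gene Dcn in 13, Myl9 in 7 and Rgs5 in 5. Acta2, smooth muscle actin, was found in 1 cell. These values chose the cells and are given as a description.

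**Figure D2:**
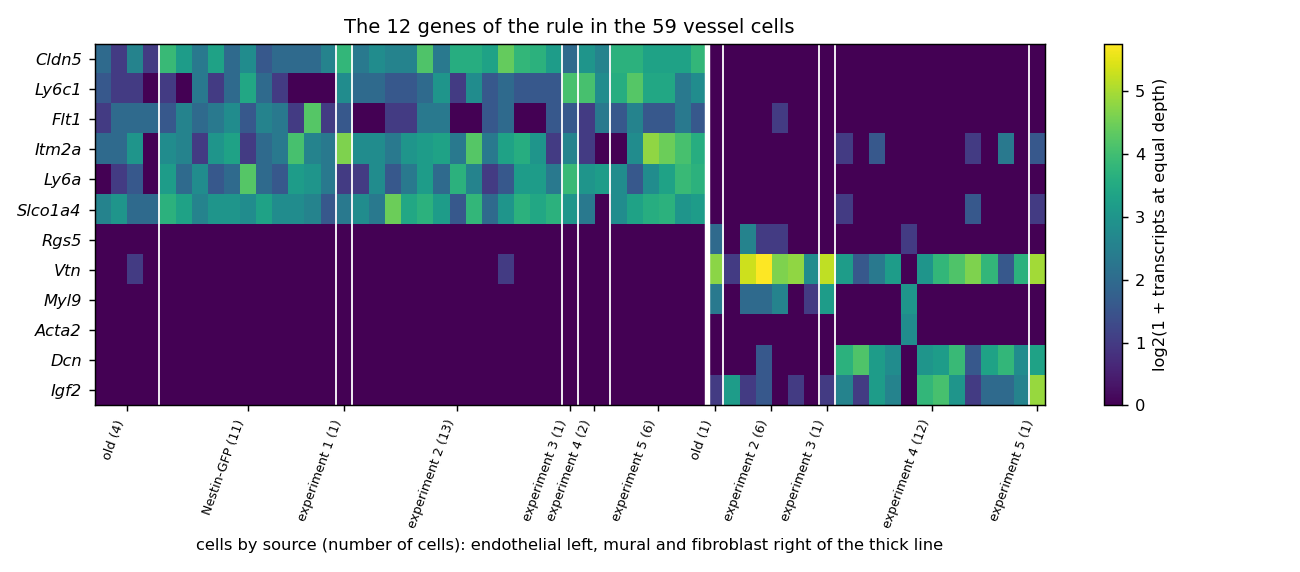
Transcripts of the 12 genes of the rule (rows) in the 59 vessel cells (columns), as log2(1 + transcripts at equal depth), with endothelial cells left and mural and fibroblast cells right of the thick line, grouped by source. Cldn5 is present in all 38 endothelial cells, Vtn in 20 of 21 mural and fibroblast cells, Dcn in cells of experiments 2, 4 and 5, and Acta2 in 1 cell.

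Endothelial cells were compared with other cells over the 4 sources with at least 3 endothelial cells (the old library, the Nestin-GFP library, and experiments 2 and 5), with counts summed by source and class. The genes that stood out were those of endothelial identity. Of 4944 genes tested outside the rule, 876 (17.7%) had an edgeR adjusted p under 0.05, 378 of them higher (7.65%) and 498 lower (10.1%) in endothelial cells, and the median difference over all genes tested was -0.45 on the log2 scale. The number fell to 503 without experiment 2 and to 560 without the Nestin-GFP library. Cells chosen by endothelial genes had to differ in genes that go with them, and many genes passed the filter on low counts only through the endothelial cells, so the counts below describe the cells and support nothing about the rule.

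Robo4 (chr9:37401897-37415115, plus strand, mm10), a guidance receptor of endothelium, had 567 CPM in old, 172 in Nestin-GFP, 691 in experiment 2 and 319 in experiment 5 endothelial cells, and 0 in other cells of all 4 sources. Against a floor of 3 counts over those other cells its level was at least 857-fold higher (edgeR adjusted p 6.3e-27). Cdh5 (chr8:104101625-104144511, plus strand), the cadherin of endothelial junctions, had 212, 447, 489 and 63.7 CPM in endothelial cells of the same 4 sources, against 0.486 ± 0.671 CPM in other cells (SD, n = 4 sources). Its log2 difference was 9.28 (SE 0.96, edgeR adjusted p 7.0e-20). The 63.7 CPM of Cdh5 in experiment 5 is 1 count. Egfl7 (chr2:26580014-26593120, plus strand), a secreted regulator of vessel formation, had 1487, 1477, 2592 and 2168 CPM in endothelial cells against 2.97 ± 2.91 in other cells, a log2 difference of 8.94 (SE 0.68, edgeR adjusted p 4.4e-36). Tek (chr4:94739289-94874976, plus strand), the angiopoietin receptor, had 142 CPM in old endothelial cells and 584, 601 and 637 in Nestin-GFP, experiment 2 and experiment 5, against 0.568 ± 0.659 in other cells. The old library was the low one for Tek, but its value rests on 2 counts. The values of Nestin-GFP, experiment 2 and experiment 5 lay close together and rest on 17, 27.1 and 10 counts.
The 10 genes with the largest difference also included Gpr116 and Eltd1, adhesion receptors of endothelium, at 1423 ± 344 and 784 ± 189 CPM against 1.80 ± 1.53 and 1.47 ± 1.10 CPM in other cells. Adcy4, an adenylate cyclase, had 282 ± 125.6 CPM in endothelial cells and 1 count in other cells, a ratio of 1411 with a counting interval of 233 to 57780. Nostrin, which moves endothelial nitric oxide synthase inside the cell, had 533 ± 292 against 1.26 ± 1.05 CPM. Slc38a5, a glutamine transporter, had 978 ± 582 against 2.24 ± 2.14 CPM, and Mmrn2, a matrix protein laid down by endothelium, 468 ± 81.8 against 0.641 ± 0.966 CPM. The endothelial and other values overlapped in none of these 10 genes. These genes were named for the largest differences with the same sign in every source, so this follows largely from the choice. The share of all genes tested without overlap is not given.

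**Figure D3:**
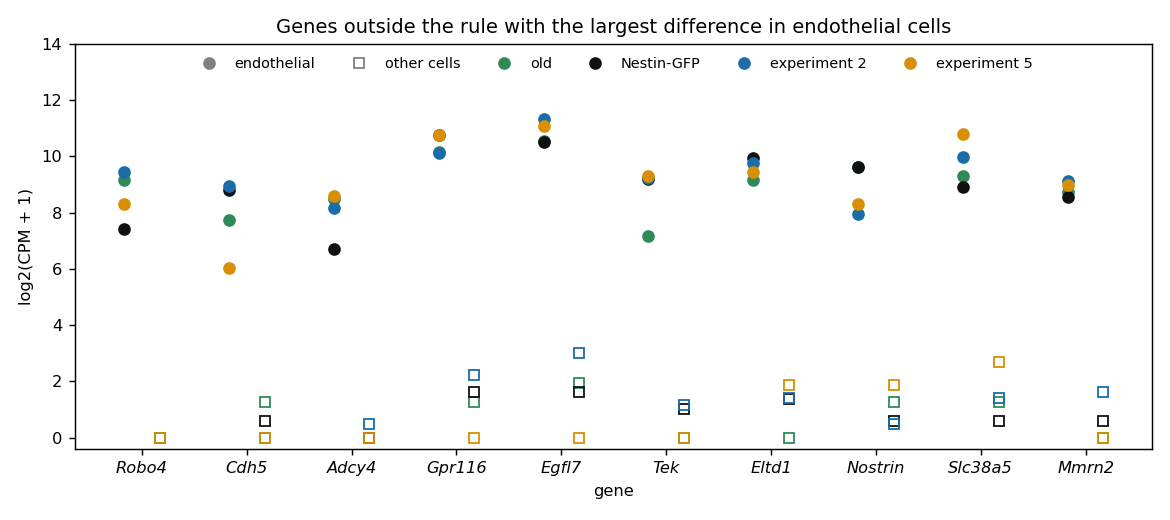
Level of the 10 named genes, as log2(CPM + 1), in endothelial cells (filled circles) and other cells (open squares) of the 4 sources (colours). Endothelial values lie above the values of other cells for every gene and source. The lowest is 63.7 CPM (1 count) for Cdh5 in experiment 5, and Robo4 is at 0 in other cells of all 4 sources.

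Of 30 genes listed for endothelial identity and junctions, 26 passed the filter on low counts and 25 of them were higher, with a median log2 difference of 6.94. The endothelial adhesion molecule Pecam1 had 850, 790, 803 and 510 CPM in old, Nestin-GFP, experiment 2 and experiment 5 endothelial cells against 11.3 ± 11.9 in other cells, a log2 difference of 6.30 (SE 0.61, edgeR adjusted p 1.7e-22). The receptor phosphatase Ptprb, which acts on Tek, had 1747 ± 476 against 4.62 ± 1.96 CPM, and the receptor Tie1 1057 ± 342 against 3.30 ± 1.55 CPM. Vwf, encoding von Willebrand factor, had 1347 CPM in old and 1403 in experiment 5 endothelial cells, and 584 and 630 in Nestin-GFP and experiment 2. The Vegf receptor Kdr had 387 ± 96.2 against 1.78 ± 1.08 CPM. S1pr1, a receptor for sphingosine-1-phosphate, was the one tested member that did not pass: it had 418 ± 212 CPM in endothelial and 363 ± 280 CPM in other cells, a log2 difference of 0.10 (edgeR adjusted p 0.93). Each endothelial cell held 8 to 20 of the listed genes at equal depth, with a median of 13.5. The rule had used none of them, but cells chosen by endothelial genes had to hold genes that go with them. These numbers therefore describe the cells only.

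Endothelial transcription factors were higher for 13 of 15 tested genes of 22 in the files, with a median log2 difference of 3.85. Foxq1 had 688 ± 355 against 1.39 ± 0.974 CPM, Sox17, a factor of arterial and barrier endothelium, 524 ± 189 against 1.97 ± 1.24, and Sox18 429 ± 150 against 1.08 ± 1.54. Foxf2, known from pericytes as well as endothelium, had 191 ± 37.8 against 0.204 ± 0.409 CPM. The flow-responsive factor Klf2 had 1254 ± 258 against 404 ± 374 CPM (log2 difference 2.10, SE 0.54, edgeR adjusted p 0.0011), whereas Klf4, also flow-responsive, had 1085 ± 524 against 706 ± 658 CPM and did not pass (edgeR adjusted p 0.32). The ETS family members Ets1, Ets2, Elk3 and Fli1 were among the higher genes; Fli1 had 222 ± 159 against 36.1 ± 31.3 CPM.

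Genes of barrier transport were higher for 22 of 25 tested genes of 26 listed, with a median log2 difference of 3.95. Slc2a1, the glucose transporter of the barrier, had 1559, 3061, 1885 and 2104 CPM in old, Nestin-GFP, experiment 2 and experiment 5 endothelial cells against 25.6, 104, 31.1 and 105 CPM in other cells, a log2 difference of 4.94 (SE 0.55, edgeR adjusted p 2.6e-17). It was found in 36 of 38 endothelial cells and in 6.91% of other cells at equal depth. Slco1c1, a thyroid hormone transporter, had 3337 ± 935 against 127 ± 111 CPM, and Abcb1a, the efflux pump P-glycoprotein, 1882 ± 228 against 11.2 ± 6.26 CPM. Slc7a5, the large neutral amino acid transporter, had 1199 ± 296 against 32.4 ± 5.01 CPM. Tfrc, the transferrin receptor, varied more between sources, with 212 CPM in old and 584 in Nestin-GFP endothelial cells against 1582 in experiment 2 and 3063 in experiment 5. Mfsd2a, a lipid transporter that restrains transcytosis, had 778 ± 398 against 104 ± 54.9 CPM, and its edgeR adjusted p of 1.4e-05 was 0.096 without the wells that held markers of another cell type. Lrp1, a scavenger receptor, was the one lower member, at 60.1 ± 43.2 against 616 ± 150 CPM (log2 difference -3.39, SE 0.65, edgeR adjusted p 3.3e-06). Slco2b1 and Lrp8 did not pass, at log2 differences of 1.5 and 1.18.

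Receptors and targets of Wnt signalling, which builds the barrier, were higher for 7 of 10 tested genes, with a median log2 difference of 2.93. Lef1, a Wnt target and effector, had 418 ± 115 against 18.8 ± 10.9 CPM. Gpr124 and Reck, the co-receptors for Wnt7 ligands in brain endothelium, had 120 ± 70.4 against 2.13 ± 1.79 CPM and 243 ± 145 against 16.7 ± 3.51 CPM. Ctnnb1, encoding β-catenin, had 981 ± 426 against 363 ± 132 CPM and did not pass (edgeR adjusted p 0.11). In the list of Vegf, Notch, Tgf-β and angiopoietin signalling 9 of 13 tested genes were higher, with a median of 2.26. The Tgf-β family receptors Acvrl1 and Eng had 718 ± 228 against 6.04 ± 4.69 CPM and 837 ± 200 against 20.5 ± 14.5 CPM, and the target genes Id1 and Id3 968 ± 521 against 21 ± 11.4 CPM and 1196 ± 268 against 102 ± 91.8 CPM. Pdgfb, the ligand that holds pericytes at the vessel, had 779, 309, 400 and 701 CPM in old, Nestin-GFP, experiment 2 and experiment 5 endothelial cells against 89.7, 2.61, 44.7 and 123 CPM in other cells (log2 difference 3.29, SE 0.52, edgeR adjusted p 9.2e-09). The share of all genes tested without overlap between the groups is not given, so the lack of overlap here is not read as a result about Pdgfb.

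Leukocyte adhesion and interferon genes were higher for 11 of 12 tested genes, with a median log2 difference of 2.91. Ly6e had 3712 ± 618 against 350 ± 237 CPM, Ifitm3, an antiviral membrane protein, 852 ± 236 against 14.7 ± 9.35 CPM, and the chemokine Cxcl12 2553 CPM in old, 1375 in Nestin-GFP, 548 in experiment 2 and 1341 in experiment 5 endothelial cells against 18.8 ± 16.1 CPM in other cells. The class I antigen presentation genes B2m, H2-D1 and H2-K1 had log2 differences of 1.98, 2.35 and 2.11. Of the basement membrane list 8 of 12 tested genes were higher, with a median of 3.29: the collagen IV chains Col4a1 and Col4a2 had 478 ± 134 against 15 ± 5.80 CPM and 383 ± 127 against 19.5 ± 10.3 CPM. Fn1, fibronectin, and Igfbp7 were the 2 higher of 6 tested genes in the fibroblast list, at 1456 ± 569 against 8.83 ± 6.23 CPM and 1432 ± 386 against 13.9 ± 6.21 CPM. Only 2 of 20 pericyte genes in the files passed the filter, and neither was higher; the pericyte and smooth muscle lists summed to 206 to 496 CPM and 155 to 708 CPM in endothelial cells of the 4 sources.

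Stress genes did not move together. Of 20 tested genes of the immediate early and dissociation response list, the heat-shock genes Hspa1a, Hspa1b and Hspb1 and the early gene Ier3 were higher, Egr1, Hspa8 and Hsp90aa1 were lower (Egr1 and Hspa8 not without 1 old well described below, at edgeR adjusted p 0.11 and 0.094), and 13 did not pass, among them Fos (edgeR adjusted p 0.052) and Jun (0.84). Hspb1 had 3762 CPM in old, 2410 in Nestin-GFP, 1701 in experiment 2 and 828 in experiment 5 endothelial cells, against 231, 3.65, 63.0 and 16.1 CPM in other cells. Ier3 had 2486 CPM in old endothelial cells against 550, 156 and 510 CPM in those of Nestin-GFP, experiment 2 and experiment 5. The whole list summed to 30225 CPM in old endothelial cells, and over all 7 sources it ranged from 4590 CPM (1 cell of experiment 3) to 68131 CPM (1 cell of experiment 1). None of 71 tested cytoplasmic ribosomal protein genes passed in either direction, with a median of -0.57 beside -0.45 over all genes tested.

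Genes lower in endothelial cells included those of the neural and immune cells in the sort. The 5 named by size were Cadm4, Cxcl14, Lrrn1, Phyhipl and Ramp1. These genes had no count in endothelial cells of the 4 sources compared. In other cells they had 172 ± 71.0, 184 ± 125, 172 ± 39.8, 177 ± 90.4 and 168 ± 22.2 CPM. Against a floor of 3 counts over the endothelial cells they were at least 7.20-, 6.00-, 6.50-, 6.06- and 5.56-fold lower. Marker lists of other cell types were lower for 11 of 11 tested microglia genes, 8 of 9 astrocyte and stem cell genes, 9 of 10 oligodendrocyte precursor genes, 9 of 10 mature oligodendrocyte genes and 5 of 7 neuroblast and neuron genes, with medians from -3.22 to -2.71. Of the remaining lists, the 1 tested leukocyte gene and both tested choroid plexus genes were lower, and none of the perivascular macrophage or erythrocyte genes passed the filter. Per endothelial cell at equal depth the microglia list summed to 0 to 12 transcripts (median 1), the astrocyte and stem cell list to 0 to 9 (median 2) and the mature oligodendrocyte list to 0 to 16 (median 1), while the perivascular macrophage, leukocyte and erythrocyte lists were at 0 in all 38. One endothelial cell, from the old library, held 7 or more microglia transcripts. Without it, 729 genes passed, and the lists above had 23 identity, 11 transcription factor, 22 transport, 5 Wnt, 8 Vegf and Notch, 10 adhesion and interferon and 5 basement membrane genes higher, and members such as Col4a2, Elk3, Foxf2 and Id1 no longer passed the filter on low counts. In the Nestin-GFP library 7 of the 11 endothelial cells held 7 or more mature oligodendrocyte transcripts; that list summed to 4534 CPM in its endothelial and 25940 CPM in its other cells, against 422 to 637 CPM in endothelial cells of the other three sources compared. Without all wells that held 7 or more transcripts of another cell type's markers, these 7 among them, 627 genes passed, 228 higher and 399 lower.

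Nes, the intermediate filament gene whose promoter drives the reporter and which is best known from neural stem cells, was higher in endothelial cells. In old, Nestin-GFP, experiment 2 and experiment 5 endothelial cells it had 354, 343, 178 and 255 CPM. Other cells of these sources had 4.27, 8.88, 10.2 and 8.04 CPM. The log2 difference was 4.77 (SE 0.66, edgeR adjusted p 1.6e-11). At equal depth 9 of 38 endothelial cells (23.7%) and 16 of 1477 other cells (1.08%) held a Nes transcript, but 0 of the 4 old endothelial cells did. In the old library 4 Nes counts came from the well with 12 microglia transcripts and 1 from another well. In the Nestin-GFP library, wells with 7 or more mature oligodendrocyte transcripts held 3, 1 and 2 Nes counts, and other wells 1, 2 and 1. The reporter itself, eGFP, had 4 counts in endothelial cells of the Nestin-GFP library, 137 CPM with a Poisson 95% interval of 37.4 to 352, against 208 CPM in the other cells of that library. A count was found in 3 of its 11 endothelial cells. Wells with 8 and 7 mature oligodendrocyte transcripts held 2 and 1 of these counts, and a well with 4 held 1. At equal depth 0 of 11 endothelial cells and 65 of 288 other cells of that library (22.6%) held an eGFP transcript. No eGFP count was found in vessel or other cells of any other source.

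Endothelial cells differed among themselves in genes of arteries and veins, but most could not be placed by them. At equal depth 2 of 38 cells held artery genes only (of 4), 15 held vein genes only (of 5), 4 held both and 17 held neither. Of 18 genes listed for arteries, capillaries and veins, 8 passed the filter and 5 were higher: Tfrc, Slc38a5, Mfsd2a, Vcam1 and Ephb4. The artery genes Bmx, Gkn3, Gja4, Efnb2 and Vegfc did not pass the filter, because they were confined to few cells: a count was found for Bmx in 6, for Efnb2 in 5, for Gkn3 in 4, and for Gja4 and Vegfc in 3 of 38. The capillary and transport genes Tfrc and Slc7a5 were each found in 26, Slc38a5 in 25, and Mfsd2a and Spock2 in 19.
Both endothelial cells of experiment 4 held the artery gene Gkn3 at equal depth. Both also held Vcam1, which is not among the artery genes, so they were not the 2 cells with artery genes only. One held 29.7 counts of Gkn3, 7.10 of Bmx, 9.16 of Vegfc and 30.8 of Vcam1, and the other 10.2, 6.07, 4.03 and 8.13. Neither held a count of Tfrc, Slc38a5, Mfsd2a, Slc7a5 or Spock2, although at 12893 and 9602 transcripts they were the deepest endothelial cells. They also held 67.1 and 59.4 counts of Mgp, encoding matrix Gla protein. Outside experiment 4, Mgp was found in 1 Nestin-GFP cell with 9.01 counts and 5 of Gkn3, and in 1 old cell with 6 counts and 3 of Gkn3, so the 4 endothelial cells with Gkn3 and the 4 with Mgp were the same cells. Experiment 4 endothelial cells also had the lowest sum of the transport list, 11665 CPM against 18000 to 29776 CPM in the other sources, while their identity list, 21142 CPM, lay within the 15226 to 22715 CPM of the rest. Lrg1, a venous gene, was found in 4 cells, 1 each of the old library, the Nestin-GFP library, experiment 2 and experiment 5, with 14, 9.01, 3.01 and 3 counts; those cells also held 15, 9.01, 14.4 and 13 counts of Vwf. The old cell held both Lrg1 and Gkn3. With 1 to 13 cells a source these kinds were not compared between sources.

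**Figure D4:**
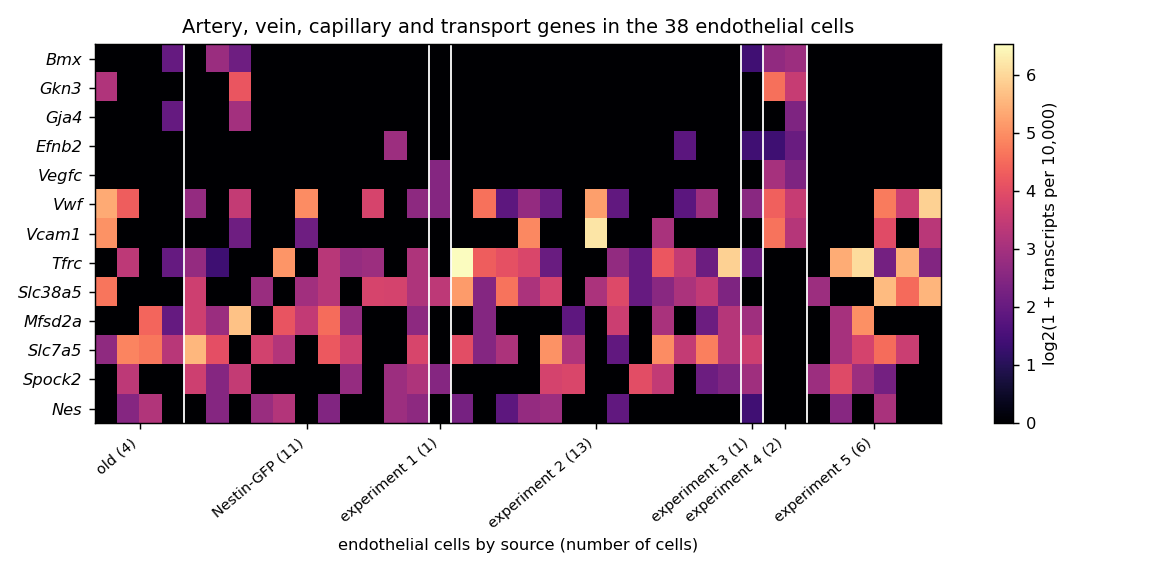
Artery, vein, capillary and transport genes and Nes (rows) in the 38 endothelial cells (columns, by source), as log2(1 + transcripts per 10000). The 2 cells of experiment 4 show Gkn3, Bmx, Vegfc, Vcam1 and Vwf and no Tfrc, Slc38a5, Mfsd2a, Slc7a5 or Spock2.

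Levels of the endothelial genes of the rule also differed between sources, and are given without a test because they chose the cells. Ly6c1 had 1346 CPM in old (Poisson 95% interval 810 to 2101) and 1650 CPM in Nestin-GFP endothelial cells (1217 to 2188), against 2276 CPM in experiment 2, 6322 in experiment 5, 9098 in experiment 4, and 4300 and 10920 CPM in the single cells of experiments 1 and 3. Both were below every niche experiment, but both intervals overlap that of experiment 2 (1857 to 2761). Flt1 was highest in Nestin-GFP, at 3201 CPM (2584 to 3920), against 1203 in old and 822 to 1785 CPM in the niche experiments. Itm2a was 179 CPM in experiment 4 (49.2 to 457), against 2127 in old, 3026 in Nestin-GFP and 4464 to 14440 CPM in the rest. Cldn5 ranged from 1661 CPM in the single cell of experiment 3 to 7754 CPM in that of experiment 1. These intervals cover counting within one library or experiment and not the spread between mice.

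Mural and fibroblast cells were compared with other cells over experiments 2 and 4, the sources with at least 3 of them. These experiments held different cells: the pericyte list summed to more than the fibroblast list in 4 of the 6 cells of experiment 2, whose remaining 2 held no pericyte-list transcript, and the fibroblast list to more in 11 of the 12 cells of experiment 4. A gene called here therefore differed from other cells in a mixture that itself differs between the sources. Cells chosen by mural and fibroblast genes also had to differ in genes that go with them. Genes near 0 in other cells, such as Kcnj8 with 5 counts there, passed the filter on low counts only through the chosen cells. The counts of list members below therefore describe the cells and support nothing about the rule. Of 10477 genes tested, 425 (4.06%) had an edgeR adjusted p under 0.05, 285 higher (2.72%) and 140 lower (1.34%), with a median over all genes of -0.35. Without the 2 wells of experiment 2 that held no pericyte gene, 231 genes passed (191 higher and 40 lower), 230 of them the same, and without the source as a block 168 passed.

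Most pericyte genes tested were higher. Of 20 listed genes in the files 16 passed the filter and 15 were higher, with a median log2 difference of 6.43, and the same number passed without the 2 wells. Of all genes tested 2.72% were higher. Kcnj8, a potassium channel subunit of pericytes, had 1684 CPM in experiment 2 and 42.2 CPM in experiment 4 mural and fibroblast cells, against 2.04 and 0 CPM in other cells, a log2 difference of 9.26 (SE 1.04, edgeR adjusted p 2.7e-15). Notch3, the Notch receptor of mural cells, had 1245 and 138 CPM against 0.409 and 3.63 CPM (7.84, SE 0.89, edgeR adjusted p 3.4e-15). Pdgfrb had 2486 and 433 CPM against 13.9 and 12.1 CPM, Atp13a5 3434 and 272 CPM against 2.86 and 19.5 CPM, and Abcc9, the partner of Kcnj8, 1466 and 67.4 CPM against 5.31 and 3.02 CPM. All of these were higher in experiment 2 than in experiment 4. Tbx18, a mural transcription factor, ran the other way, with 275 and 1297 CPM against 10.6 and 18.8 CPM, and Zic1 was level, with 792 and 909 CPM against 45.0 and 44.3 CPM. Cspg4, a pericyte marker that oligodendrocyte precursors share, had 631 and 94.2 CPM against 552 and 33.2 CPM and did not pass (edgeR adjusted p 0.81).
Genes were ranked by size among those called, higher in both experiments and with at least 20 counts. The 10 leading genes were then Higd1b, Il34, Kcnj8, Ror2, P2ry14, Notch3, Ndufa4l2, Egflam, Foxd1 and Pla1a, with log2 differences from 9.76 to 7.71. The largest log2 difference in the fibroblast list was 10.17, in a gene that did not meet these conditions. Il34, a cytokine that acts on the microglial receptor Csf1r, had 315 and 237 CPM in experiments 2 and 4 against 0.409 and 0 CPM in other cells. Of 15 smooth muscle genes in the files 7 were tested and Mylk, Tagln, Tpm2 and Myh11 were higher; Tagln had 39.2 and 656 CPM and Myh11 0 and 315 CPM in experiments 2 and 4, and the DESeq2 adjusted p of Myh11 was 0.63.

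Of 32 fibroblast genes 25 passed the filter and 20 were higher, with a median log2 difference of 5.14; without the 2 wells the number higher was 14. The collagen I genes Col1a1 and Col1a2 had 0 and 3413 CPM, and 592 and 4440 CPM, in experiment 2 and experiment 4 mural and fibroblast cells, against 0.409 and 31.4 CPM, and 1.63 and 43.1 CPM, in other cells (Col1a2 log2 difference 7.35, SE 0.86, edgeR adjusted p 1.4e-14). Lum, a collagen-binding proteoglycan, had 0 and 1337 CPM against 0.409 and 16.9 CPM. Slc6a13, a transporter of leptomeningeal and perivascular fibroblasts, and Aldh1a2, which makes retinoic acid in the meninges, had 0 CPM in experiment 2 and 1388 and 590 CPM in experiment 4, against 0 and at most 12.1 CPM in other cells. Their adjusted p by DESeq2 was 0.54 and 0.58. Apod had 39.2 and 11030 CPM against 27.9 and 76.2 CPM; its edgeR adjusted p of 0.0012 was 0.28 without the 2 wells. Mgp ran the other way, with 1542 and 359 CPM against 1.63 and 18.1 CPM. Pdgfra, which marks both fibroblasts and oligodendrocyte precursors, had 118 and 1288 CPM against 1039 and 89.5 CPM, and did not pass.

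Basement membrane genes were shared by both experiments. Of 18 tested genes 12 were higher, with a median log2 difference of 4.59. Col4a1 had 1235 and 1606 CPM in experiments 2 and 4 against 21.2 and 29.7 CPM in other cells (5.76, SE 0.75, edgeR adjusted p 7.9e-12), Nid1, encoding nidogen, 1185 and 1546 against 2.86 and 30.2 CPM, and Lamc1 590 and 921 against 36.4 and 20.6 CPM. Lama1 was the exception, with 0 and 1105 CPM in experiments 2 and 4. Sparc had 3887 and 4185 CPM against 995 and 341 CPM, with an edgeR adjusted p of 0.0074 that was 0.40 without the 2 wells. Of the endothelial lists, 5 of 11 tested identity genes (Tm4sf1, Mcam, Ramp2, Esam and Eng) and 4 of 13 transcription factors (Epas1, Nr2f2, Foxc1 and Heyl) were higher; without the 2 wells the edgeR adjusted p was 0.39 for Ramp2 and 0.14 for Epas1. Foxc1, a forkhead factor of mural and meningeal cells, had 275 and 888 CPM against 2.04 and 6.65 CPM. Of 22 tested transport genes 2 were higher, Slc22a8, an organic anion transporter, and Car4, a carbonic anhydrase, and Lrp8 was lower, with an edgeR adjusted p of 0.027 that was 0.19 without the 2 wells. Of the signalling lists 4 of 11 Wnt genes were higher, and 4 of 13 Vegf and Notch genes were higher and Ednrb lower; without the 2 wells 2 Wnt and 3 Vegf and Notch genes were higher. Among 15 adhesion and interferon genes 4 were higher, with Cxcl12 at 238 and 1537 against 10.3 and 33.9 CPM, whereas B2m had 472 and 772 against 776 and 751 CPM and did not pass. The artery, capillary and vein list had 2 of 8 higher, the stress list 3 of 23 and the ribosomal list 0 of 78.

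The 5 lower genes named by size were Mcf2l, Pllp, Draxin, Fdft1 and Insm1, which had no count in mural and fibroblast cells of either experiment and were at least 7.48-, 15.6-, 8.22-, 6.07- and 5.63-fold lower against a floor of 3 counts over those cells. DESeq2 called none of the 5, with adjusted p from 0.60 to 0.65. Of other cell types 6 of 12 microglia, 4 of 11 astrocyte, 6 of 10 oligodendrocyte precursor, 6 of 9 neuron and 2 of 7 leukocyte genes were lower, and 0 of 9 mature oligodendrocyte genes. Without the 2 wells the numbers lower were 4 microglia, 1 astrocyte, 3 oligodendrocyte precursor, 2 neuron and 0 leukocyte genes. Of 5 tested choroid plexus genes 3 were higher: Ttr had 28820 CPM in experiment 2 and 0 CPM in experiment 4, with an edgeR adjusted p of 0.0012 that was 0.97 without the 2 wells.

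Single cells showed which kind they were, and this division was made after their values had been seen and was not tested. In 7 cells the pericyte list, with the genes of the rule left out, summed to more than the fibroblast list: 1 of the old library, 4 of experiment 2, 1 of experiment 3 and 1 of experiment 4. They held 21 to 61 pericyte transcripts (median 33) and 4 to 28 fibroblast transcripts at equal depth, with Pdgfrb in 7 of 7, Vtn in 6, Rgs5, Abcc9 and Notch3 in 5 and Dcn in 1. The one from experiment 4 held no Vtn but 19 smooth muscle transcripts, 10 of them Tagln, and was the only vessel cell with Acta2. In 14 cells the fibroblast list was larger. Of these, 2 cells of experiment 2 with many microglia or choroid plexus transcripts are set apart below. The other 12 were 11 of experiment 4 and 1 of experiment 5. They held 28 to 120 fibroblast transcripts (median 61.5) and 1 to 10 pericyte transcripts. Among the 11 of experiment 4, 3 held 7 or more astrocyte and stem cell transcripts and 1 held 7 or more oligodendrocyte precursor transcripts. All 12 held Dcn, Col1a1, Col1a2, Vtn and Igf2, 9 held Slc6a13 and 9 Aldh1a2, and none held Rgs5, Myl9, Acta2, Notch3 or Abcc9. The cell of experiment 5 held 84 transcripts of Ptgds, prostaglandin D synthase, and 28 of Igf2. The last 2 cells, both of experiment 2, held no transcript of the pericyte list. One had 349 choroid plexus transcripts and met the rule through 8 of Igf2 and 1 of Vtn, and the other had 29 microglia transcripts and met it through 6 of Vtn and 1 of Myl9. The data go against the label for these 2 cells, and whether wells were shared by more than one cell was not tested. Kind and experiment moved together, so fibroblast cells and experiment 4 cannot be told apart.

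**Figure D5:**
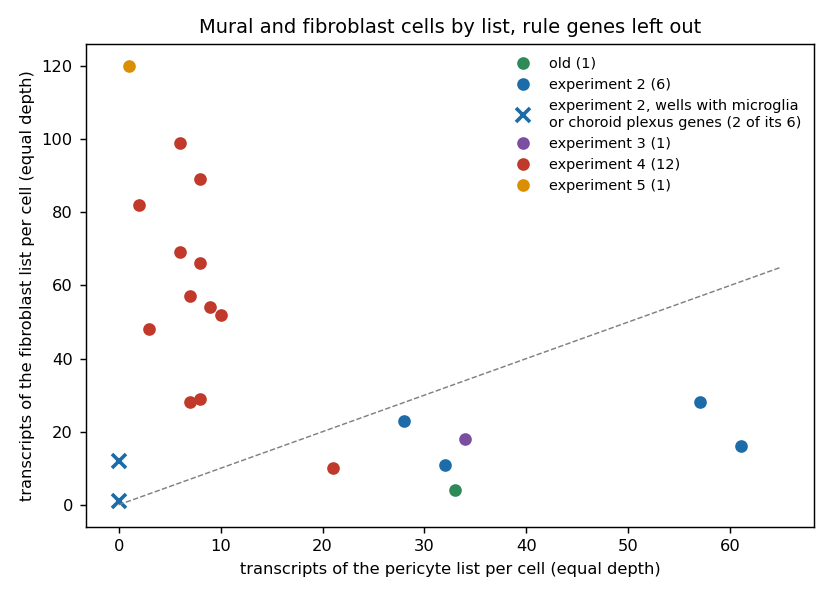
Transcripts of the pericyte list (horizontal) and the fibroblast list (vertical) in each of the 21 mural and fibroblast cells at equal depth, coloured by source, with the genes of the rule left out; the dashed line marks equal sums. The 11 fibroblast cells of experiment 4 and the cell of experiment 5 lie above the line, 7 cells lie to the right below it, and crosses mark the 2 wells with microglia or choroid plexus transcripts.

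Summed levels of the lists differed in the same way between experiments 2 and 4, and the old library, experiment 3 and experiment 5 add 1 cell each. The pericyte list summed to 21637 CPM in the old cell, 19996 in experiment 2 and 23670 in experiment 3, against 4892 in experiment 4 and 2052 in experiment 5. The fibroblast list ran the other way, with 4446 CPM in the old cell, 10815 in experiment 2 and 12407 in experiment 3, against 40949 in experiment 4 and 82834 in experiment 5. The basement membrane list lay between 7701 and 17951 CPM in all 5. Other cells of these 5 sources held 271 to 775 CPM of the pericyte and 848 to 3205 CPM of the fibroblast list.

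Mural and fibroblast cells could be set directly against endothelial cells of the same source only in experiment 2 at 3 cells of each, so the main comparison was not made. In summed levels the endothelial identity list had 3036 CPM in mural and fibroblast cells against 19400 CPM in endothelial cells of experiment 2, and 1658 against 21142 CPM in experiment 4. The pericyte list had 19996 against 444 CPM in experiment 2 and 4892 against 492 CPM in experiment 4. The fibroblast list had 10815 against 3548 CPM in experiment 2, and 40949 against 15519 CPM in experiment 4, where the endothelial share came from Mgp at 5621 CPM, Igfbp7 at 5348, Fn1 at 2193 and Igfbp4 at 1643 CPM.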

How the data were processed

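Single-cell libraries of 33 plates were read from the deposited tables; per the submitters' processing notes the aligner was BWA 0.6.2-r126 and the genome build mm10, and the sources used here do not give the counting tool or annotation. The authors deposited estimated counts (expected counts) per gene and well, that is transcripts corrected for UMI saturation: undoing the correction with pools of 256 or 4096 UMIs gave whole numbers within 0.05 for 99.56% to 100% of values. They were rounded for tests. The labels describe the reads of plates C and H as a resequencing of the original libraries. The equal-depth table, a deposited downsampled score per gene and cell, held whole transcripts plus 0.1, which was subtracted; it has 12469 genes and 1536 cells, each of which was matched to its own well. Spike-in and mitochondrial genes were left out, which left 18843 genes.

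Counts were summed by source and class where a source held at least 3 cells of the class, and compared with edgeR 4.0.16 in R 4.3.3 (TMM scaling, filterByExpr, quasi-likelihood test, two-sided, Benjamini-Hochberg adjustment over all genes tested, source as a block because the classes of a source come from the same sort). The 12 genes of the rule were left out of the tests. DESeq2 1.42.0 was an alternative, and the fit was tested on simulated data. No doublet caller was run; alternatives leave out wells with 7 or more transcripts of another cell type's markers. Because SORT-seq counts 3′ ends, levels do not depend on transcript length. Means are given ± SD over sources, levels of single sources with Poisson intervals, and ratios with exact binomial intervals conditional on the total count. The members, lists and tests were chosen with earlier results of these data known. Named genes are the 10 highest and 5 lowest fitted differences among called genes with the same sign in every source and at least 20 counts, the genes of the rule, and leading members of the lists; the genes that tell kinds of endothelial and mural cells apart (Mgp, Lrg1 and others) and those in the closing observations were chosen after their values were seen. Other tools were Python 3.11.15, pandas 2.3.3, numpy 2.4.6, scipy 1.17.1 and matplotlib 3.10.9.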

Additional observations from a re-analysis of the deposited data

Results flagged for a closer look

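Of 24 values screened for a sample far from the others in its group, 2 were flagged, where chance flags about 1 in 20. The share of mural and fibroblast cells over the 5 niche experiments was 8.82% in experiment 4, against 0% to 1.75% in experiments 1, 2, 3 and 5. The level of Tek in endothelial cells over 4 sources was 142 CPM in the old library, against 584 to 637 CPM in the other three. The old value rests on 4 cells and 2 counts.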

How the results depend on the processing

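The number of genes called between endothelial and other cells, 876, was 512 in the niche experiments alone (339 higher and 173 lower of 5705) and 503 to 878 when each source was left out, the lowest without experiment 2 and the highest without the old library. It was 789 with DESeq2 (780 shared), 998 with DESeq2's size factors, 1283 with no filter on low counts, 627 without wells that held another cell type's markers, and 729 without the old well with microglia transcripts (added after seeing the data). The number between mural and fibroblast and other cells, 425, was 446 with DESeq2 (337 shared), 231 at a rule sum of 10 or more, 215 without wells that held other markers, and 231 without the microglia and choroid plexus wells (added after seeing the data); the cause of the other shifts was not tested. Without the source as a replicate block the numbers were 755 and 168 (160 higher and 8 lower). Leaving out a source was not possible for mural and fibroblast cells, since 1 source remains. The named endothelial genes kept direction and call in 252 of 252 refits in which the gene was tested. The named mural genes kept direction in every such refit, kept the call in 181 and lost it in 12, all of them for the 5 lower genes. Refits in which a gene was not tested, such as Ror2 without wells that held other markers, are not counted. Mural and fibroblast minus endothelial cells could be fitted only at 2 or more cells in experiments 2 and 4: 68 of 626 genes (10.9%) passed. The Nestin-GFP share of vessel cells, 3.68%, was 1.37% without wells that held other markers. Depth and 1 to 13 cells a source limit single genes: with 4 sources (endothelial) or 2 (mural), a gene that missed the threshold is not shown to be level.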

Other observations

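Several genes outside the lists, picked after their values had been seen, also set the classes apart. Bsg, encoding basigin, a partner of monocarboxylate transporters, was found in 38 of 38 endothelial cells and in 34.3% of other cells at equal depth, at 9793 ± 1077 against 340 ± 94.2 CPM (SD, n = 4 sources; log2 difference 4.57, SE 0.57, edgeR adjusted p 1.0e-13). Nos3, endothelial nitric oxide synthase, had 484 ± 192 against 1.67 ± 0.920 CPM, and Cd93, a receptor of endothelium and myeloid cells, 538 ± 234 against 3.14 ± 3.74 CPM. The matrix protein gene Vwa1 had 1504 ± 339 against 44 ± 6.09 CPM. Itih5, whose product binds hyaluronan, was higher in both classes: it had 1133 ± 665 against 45.0 ± 43.8 CPM for endothelial cells, and 314 and 5389 CPM in mural and fibroblast cells of experiments 2 and 4 against 10.6 and 83.8 CPM in other cells. Mural and fibroblast cells also had more Sod3, the extracellular superoxide dismutase, with 1593 and 588 against 8.18 and 27.3 CPM, and more Pcolce, which aids collagen processing, with 238 and 1523 against 1.23 and 9.67 CPM. Cd248, a surface protein of pericytes and fibroblasts, had 676 and 177 against 4.09 and 1.81 CPM.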
